A study of Mus musculus with 6 samples.

Results

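The ligands, receptors and response genes of transforming growth factor beta (TGF-beta) were followed in mouse hair follicle bulbs with and without functional Notch1. The 9 genes were taken by symbol: the ligands Tgfb1, Tgfb2 and Tgfb3, the receptors Tgfbr1, Tgfbr2 and Tgfbr3, and the response genes Tgfbi, Smad7 and Ccn2. Every probe set (the group of short oligonucleotides that reports 1 transcript) whose platform annotation gave 1 of these symbols was included, which gave 22 of the 45101 probe sets on the array. Of the 22, 17 were bright enough to enter the tests and the other 5 are described by their signals. All 9 genes had at least 1 of the 17.

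Total RNA came from hair bulbs of mice at postnatal day 9 and was hybridised to 6 arrays. The emN1 bulbs (2 arrays) came from skin deleted in the embryo and had no functional Notch1, the receptor that the study removed. The anN1 bulbs (2 arrays) came from skin deleted in anagen, the growth phase of the follicle, and still had functional Notch1, and wild-type bulbs (2 arrays) were the third group. Both anN1 and wild-type bulbs served the study as controls. The first of 2 array sets held emN1 replicate 1 and anN1 replicate 1, and the second held the other 4 arrays, so that wild-type bulbs lie in the second set alone. The sources used here do not give the allele, the driver of the deletion, the strain or any pooling of animals. Replicates are labelled biological, and whether each was a separate animal is not stated. The p-values therefore reflect only how these samples vary among themselves.

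Signals are the authors' linear intensities, here called units. Notch1 itself, on its brighter probe set, gave 6498 and 6292 units in emN1 bulbs, 15077 and 12527 units in anN1 bulbs, and 23750 and 34070 units in wild-type bulbs. It was lowest in emN1, in step with the labels, although how the probes lie relative to the deleted part is not known here. The adjusted p against controls was 0.0491 in limma, and the call was lost with a pseudocount of 1 or without the array set as a term. The anN1 bulbs lay below wild-type by a log2 difference of -1.13 on this probe set and -0.19 on the dimmer one. The dimmer one gave 821.0 and 1561 units in emN1, 1581 and 2789 in anN1, and 2833 and 3720 in wild-type bulbs. Hair shaft and matrix markers were bright in all 3 groups, with a summed signal of 93985 and 107606 units in emN1 and 99129 to 125450 units in the 4 controls. The 64.6% to 68.1% of probe sets above the background limit of 112 units was alike on the 6 arrays. The 5′ over 3′ signal ratio of the actin control, a sign of RNA quality, was 0.218 (emN1) and 0.177 (anN1) in the first set, and 0.370 to 0.419 in the second. That of the GAPDH control was 0.209 (emN1) and 0.144 (anN1) in the first set, and 0.184 to 0.215 in the second, and did not split by set. The part of RNA quality in the results was not tested. Each difference between groups was fitted with the array set as a term.

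TGF-beta ligands are secreted in a latent form, bound to their own propeptide and stored in the matrix. Once released, a ligand binds the type II receptor, which recruits and phosphorylates the type I receptor. That receptor phosphorylates Smad2 and Smad3, which join Smad4 in the nucleus and switch target genes. In hair follicles, TGF-beta signals are known for a part in follicle formation and in the end of the growth phase, and TGF-beta in dermal cells is known for driving matrix synthesis.

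The start-site windows shown are those of a ligand, a receptor and a response gene that were higher in emN1 bulbs (values below), Tgfb2, Tgfbr2 and Tgfbi. From the RefSeq table (build GRCm38.p6), 6 windows of 5 of the 9 members were searched. Each ran from 250 bases before the start site to 50 after it. No window was found for Tgfb3, Tgfbr3 or Ccn2, and Smad7 was left out of the search. The motif results therefore do not cover Smad7, a response gene that did not show a difference between groups. Capitals mark CAGAC or GTCTG, the core letters that Smad3 and Smad4 bind, searched on both strands.
Tgfb2, chr1:186705940-186706239, minus strand: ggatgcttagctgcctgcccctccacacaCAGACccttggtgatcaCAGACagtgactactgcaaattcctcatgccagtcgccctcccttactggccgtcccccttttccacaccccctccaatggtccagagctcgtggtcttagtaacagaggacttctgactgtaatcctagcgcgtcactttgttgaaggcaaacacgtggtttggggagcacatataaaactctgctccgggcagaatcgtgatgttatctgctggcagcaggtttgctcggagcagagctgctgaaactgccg
Tgfbr2, chr9:116175314-116175613, minus strand: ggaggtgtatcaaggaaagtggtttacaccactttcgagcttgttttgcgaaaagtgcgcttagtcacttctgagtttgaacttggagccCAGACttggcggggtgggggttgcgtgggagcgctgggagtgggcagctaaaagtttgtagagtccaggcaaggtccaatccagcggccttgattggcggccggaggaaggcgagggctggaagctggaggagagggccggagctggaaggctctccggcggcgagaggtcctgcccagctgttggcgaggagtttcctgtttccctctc
Tgfbi, chr13:56609336-56609635, plus strand: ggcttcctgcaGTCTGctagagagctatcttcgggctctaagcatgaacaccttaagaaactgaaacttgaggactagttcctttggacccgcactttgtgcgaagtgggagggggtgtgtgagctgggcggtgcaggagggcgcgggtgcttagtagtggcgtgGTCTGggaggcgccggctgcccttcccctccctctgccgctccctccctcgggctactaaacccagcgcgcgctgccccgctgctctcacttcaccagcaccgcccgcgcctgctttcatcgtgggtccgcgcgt
In Tgfb2 the letters begin 221 and 204 bases before the start, and a TATAAA run, the TATA box letters, begins 31 bases before it. In Tgfbr2 they begin 160 bases before the start, and in Tgfbi 239 and 85 bases before it. The window of Tgfb1 and the first of 2 windows of Tgfbr1 held 0 matches. The second window of Tgfbr1, a gene about level between groups, held 1, which begins 203 bases before the start. The Smad letters were found in 49.6% of 32851 windows of the same length, so a match is common and does not mark a binding site. None of the 6 windows held TGGGAA (the core letters of RBPJ, the DNA-binding partner of Notch, in 25.6% of all windows), GGAATG (TEAD, 14.7%) or TGANTCA (AP-1, 7.81%). All motifs were searched on both strands, and no match overlapped another. The GC content was 77.0% for Tgfb1, 54.3% for Tgfb2, 59.0% for Tgfbr2 and 63.3% for Tgfbi, beside a median of 52.7% over all windows.

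Seen as a whole, 4 of the 9 genes had at least 1 probe set that was higher in emN1 bulbs than in controls: the ligand Tgfb2, the receptor Tgfbr2, and the response genes Tgfbi and Ccn2. None was lower. In limma with Benjamini-Hochberg adjustment over all 27022 tested probe sets, 7 of 17 member probe sets were higher, where 2.41% of all probe sets were. Both emN1 signals lay above all 4 control signals in 10 of 17 member probe sets, from 6 genes, and in 9.99% of all probe sets. The remaining 7 overlapped the controls. By each gene's brightest probe set, 3 of 9 genes passed (Tgfb2, Tgfbr2 and Ccn2), the share of all 12611 genes that were higher being 3.58%. The median of the 9 genes was 0.87 on the log2 scale and that of all genes -0.02. The members and the lists below were chosen with earlier results of these data known. Their contrast with all genes is therefore a description and not independent evidence. Log2 differences are of log2(signal + 17.8), which understates changes of dim probe sets. In whole bulbs, more cells of a type and more RNA per cell cannot be told apart.

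The count rests on few arrays. In limma it was 0 without emN1 replicate 1, anN1 replicate 1 or emN1 replicate 2 (with 8, 8 and 7 member probe sets at an unadjusted p under 0.05, beside 12.8%, 12.9% and 14.2% of all), 5 without anN1 replicate 2 or wild-type replicate 1, and 8 without wild-type replicate 2. It was 3 with the replicate number as a block in place of the array set, and 0 without limma's intensity trend, where 11, and 4044 of all 27022, had an unadjusted p under 0.05.

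**Figure D1:**
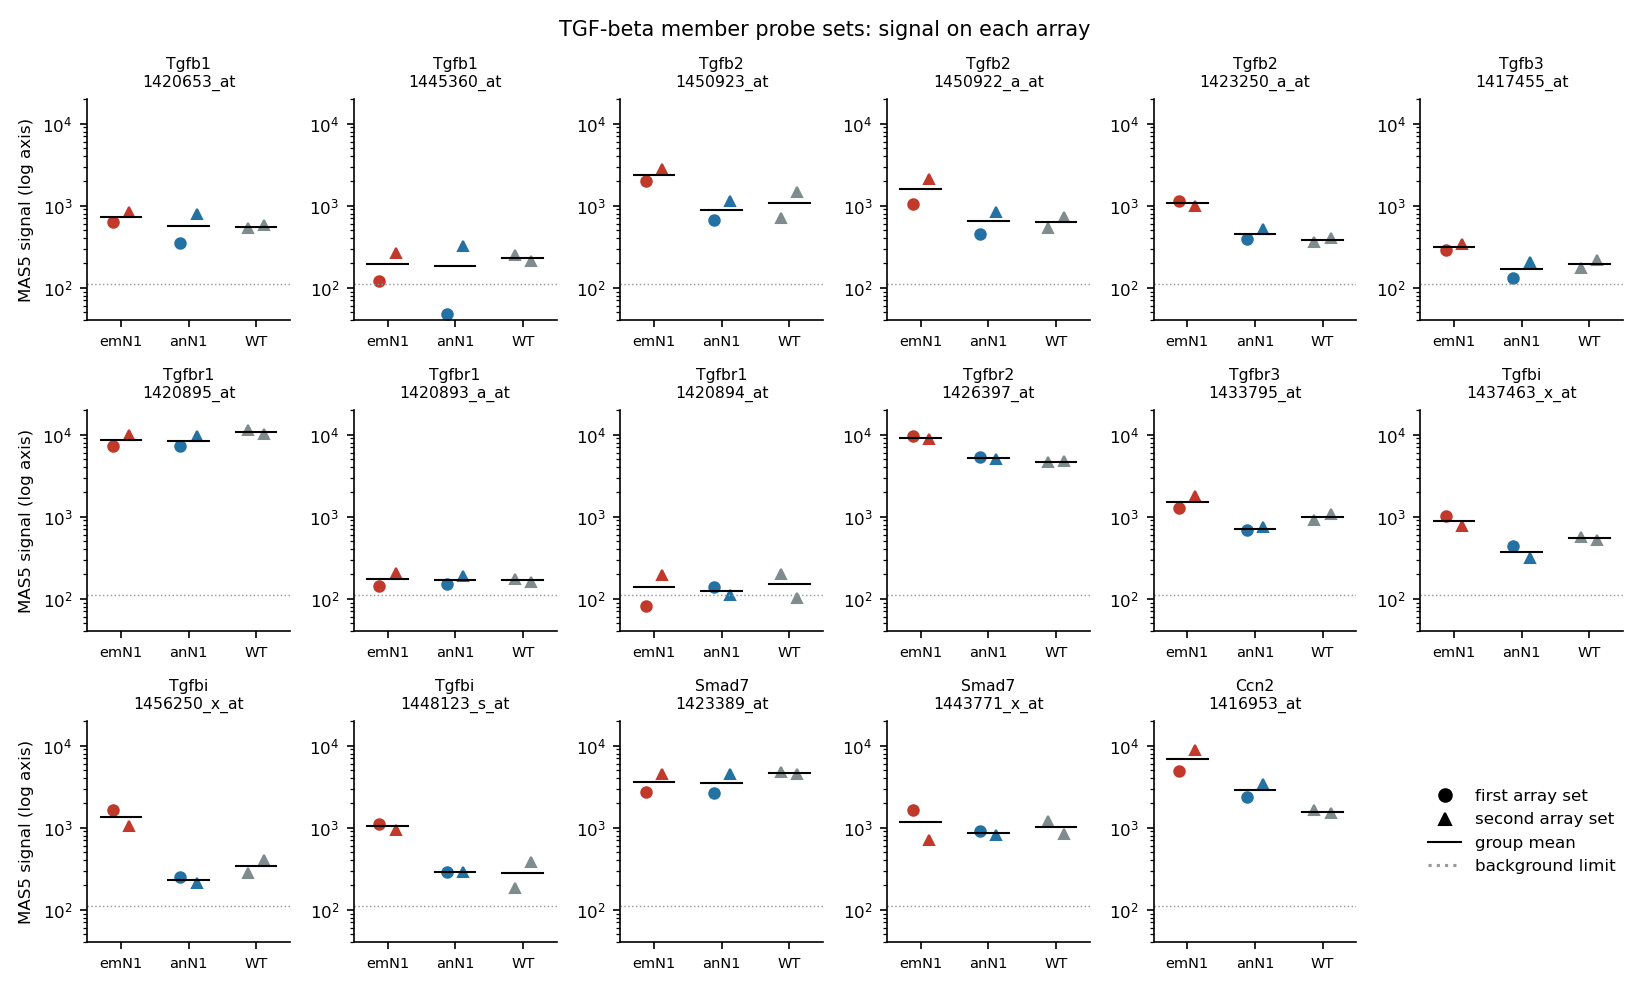
Signal of each tested probe set of the 9 genes in every array, on a log axis in units, with emN1, anN1 and wild-type (WT) from left to right. Circles are the first array set and triangles the second, short lines are group means, and the dotted line is the background limit of 112 units. The emN1 points lie above all 4 controls for Tgfb2, Tgfb3, Tgfbr2, Tgfbr3, Tgfbi and Ccn2, and overlap them for Tgfb1, Tgfbr1 and Smad7.

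Among the ligands, Tgfb2 was the one that passed the threshold against controls in limma. It encodes the isoform best known for skin and follicle formation in mice. Its brightest probe set, 1450923_at, gave 1992 and 2770 units in emN1 bulbs, 660.0 and 1131 units in anN1 bulbs, and 704.3 and 1460 units in wild-type bulbs. Both emN1 values were above every control, and in emN1 as in anN1 the first array set gave the lower of the 2 values. The log2 difference from controls was 1.46 ± 0.28 (SE), 2.74-fold, with a limma adjusted p of 0.0288.

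The other bright Tgfb2 probe sets gave the same direction. On 1450922_a_at the signals were 1051 and 2122 units in emN1, 457.2 and 836.8 in anN1, and 538.9 and 730.2 in wild-type bulbs, a log2 difference of 1.42 ± 0.24 (SE; adjusted p = 0.0178 in limma). On 1423250_a_at they were 1137 and 1004 units in emN1, 396.7 and 512.7 in anN1, and 361.0 and 407.5 in wild-type bulbs, a log2 difference of 1.32 ± 0.25 (SE; adjusted p = 0.0251 in limma). Probe sets of 1 gene share its transcripts and are not independent. The last, 1438303_at, was too dim to be tested (163.7 and 85.8 units in emN1, 45.5 to 127.2 in controls) and overlapped the controls. The brightest probe set missed the threshold without emN1 replicate 1 (adjusted p = 0.232), anN1 replicate 1 (0.220), emN1 replicate 2 (0.241) or anN1 replicate 2 (0.0586), and so did 1450922_a_at (0.108, 0.0970 and 0.276) and 1423250_a_at (0.212, 0.183 and 0.198) without the first 3 of these arrays. With the replicate block 1450922_a_at and 1423250_a_at also missed it (0.0607 and 0.0716), and without wild-type replicate 1 the last of them did (0.0547), in limma. The log2 difference stayed above 0 for all 3 in each of the 13 alternatives.

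Tgfb3, a ligand known in the mouse for palate closure and wound repair, was dimmer. It gave 289.6 and 339.3 units in emN1 bulbs, 132.6 and 205.2 units in anN1 bulbs, and 173.2 and 219.4 units in wild-type bulbs. The emN1 values lay above all 4 controls, while anN1 and wild-type overlapped, and the difference from controls (log2 0.85 ± 0.34, SE) did not pass in limma (adjusted p = 0.258). Tgfb1, the isoform most often linked to fibrosis and immune control, showed an overlap. Its brighter probe set gave 631.5 and 840.1 units in emN1, 346.1 and 785.8 in anN1, and 527.3 and 582.1 in wild-type bulbs (log2 0.59 ± 0.26, SE; adjusted p = 0.310 in limma), and the anN1 pair alone spanned nearly the whole range. The dimmer one gave 122.4 and 267.9 units in emN1, 48.3 and 324.4 in anN1, and 247.5 and 212.5 in wild-type bulbs, with no separation (adjusted p = 0.659 in limma).

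Of the receptors, Tgfbr2 was the clearest. It encodes the type II receptor that binds ligand and activates the type I receptor. Its bright probe set, 1426397_at, gave 9630 and 8759 units in emN1 bulbs, 5267 and 4995 units in anN1 bulbs, and 4609 and 4723 units in wild-type bulbs. Replicates lay close together in every group, and the emN1 bulbs stood well above both kinds of control. The log2 difference was 0.87 ± 0.11 (SE; 95% interval 0.63 to 1.11), 1.83-fold, with a limma adjusted p of 0.00509. The call was lost without emN1 replicate 1 (adjusted p = 0.0582), anN1 replicate 1 (0.0528) or emN1 replicate 2 (0.117), and without the intensity trend (0.0743), in limma. Its other probe sets, 1422019_at and 1425444_a_at, were under the background limit on every array, at 4.64 to 71.6 units, and carry no order.

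Tgfbr1, the type I kinase receptor, was about level between groups. The bright probe set gave 7199 and 9965 units in emN1, 7193 and 9662 in anN1, and 11358 and 10235 in wild-type bulbs. The emN1 and anN1 values matched closely within each set. The log2 difference from controls was -0.04 ± 0.11 (SE), with a 95% interval of -0.28 to 0.21 (adjusted p = 0.919 in limma), an interval that leaves out a change as large as that of Tgfbr2. The dimmer probe sets of Tgfbr1, at 82.1 to 207.5 units in emN1 and 103.1 to 201.1 units in controls, also overlapped (log2 0.11 ± 0.37 and 0.05 ± 0.49, SE).

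Tgfbr3, also called betaglycan, is a co-receptor that presents ligand, Tgfb2 above all, to the type II receptor. It gave 1273 and 1764 units in emN1 bulbs, 692.8 and 738.4 units in anN1 bulbs, and 913.3 and 1065 units in wild-type bulbs. Both emN1 values were above every control, by less over wild-type than over anN1. The log2 difference from controls was 0.92 ± 0.21 (SE), and the adjusted p of 0.0520 in limma just missed the threshold, which it passed without wild-type replicate 2 (0.0297). A dim second probe set, 1425620_at, overlapped at 9.46 and 155.6 units in emN1 and 31.0 to 154.6 in controls.

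Among the response genes, Tgfbi, named for its induction by TGF-beta and encoding a secreted matrix protein, was higher on 2 of 3 tested probe sets. On 1456250_x_at the signals were 1650 and 1046 units in emN1, 247.8 and 210.2 in anN1, and 283.0 and 398.7 in wild-type bulbs, 4.41-fold (log2 2.14 ± 0.34, SE; adjusted p = 0.0127 in limma). On 1448123_s_at they were 1119 and 950.2 units in emN1, 292.3 and 286.4 in anN1, and 184.3 and 384.1 in wild-type bulbs, 3.46-fold (log2 1.79 ± 0.33, SE; adjusted p = 0.0233 in limma). On both, even the lower emN1 value was far above the highest control. The probe set with the highest mean log2 signal, 1437463_x_at, gave 1014 and 769.1 units in emN1, 437.2 and 310.4 in anN1, and 562.5 and 525.5 in wild-type bulbs, and its smaller difference did not pass (log2 0.92 ± 0.30, SE; adjusted p = 0.168 in limma). The probe sets of Tgfbi therefore gave 1 direction and different sizes. A dim one, 1415871_at, was above the background limit in both emN1 bulbs (178.0 and 187.1 units) and in no control (19.5 to 61.7 units), at least 1.63-fold higher in emN1 when the controls are set at the limit. Both calls were lost without emN1 replicate 1 (adjusted p = 0.165 and 0.201), anN1 replicate 1 (0.133 and 0.180) or emN1 replicate 2 (0.126 and 0.227), and that of 1448123_s_at also without anN1 replicate 2 (0.0527) and with the replicate block (0.0543), in limma.

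Ccn2 encodes connective tissue growth factor, a secreted matricellular protein that TGF-beta and YAP with TEAD factors are known to induce. It gave 4867 and 8750 units in emN1 bulbs, 2385 and 3402 units in anN1 bulbs, and 1640 and 1508 units in wild-type bulbs. The order was emN1, anN1, wild-type, with no overlap between neighbours. Against pooled controls the log2 difference was 1.67 ± 0.36 (SE), 3.17-fold (adjusted p = 0.0422 in limma). It was lost without emN1 replicate 1 (0.124), anN1 replicate 1 (0.119), emN1 replicate 2 (0.460) or wild-type replicate 1 (0.0763), and with the replicate block (0.0860), as an adjusted p in limma.

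Smad7, the inhibitory Smad that TGF-beta induces as feedback on its own receptor, did not show a difference. Its bright probe set gave 2694 and 4528 units in emN1, 2619 and 4461 in anN1, and 4815 and 4510 in wild-type bulbs. In each set emN1 and anN1 were nearly equal, and the low pair was the first set. The log2 difference was 0.00 ± 0.12 (SE), with a 95% interval of -0.27 to 0.27 (adjusted p = 0.994 in limma). The second probe set gave 1625 and 706.0 units in emN1 and 814.4 to 1208 units in controls, overlapping them.

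**Figure D2:**
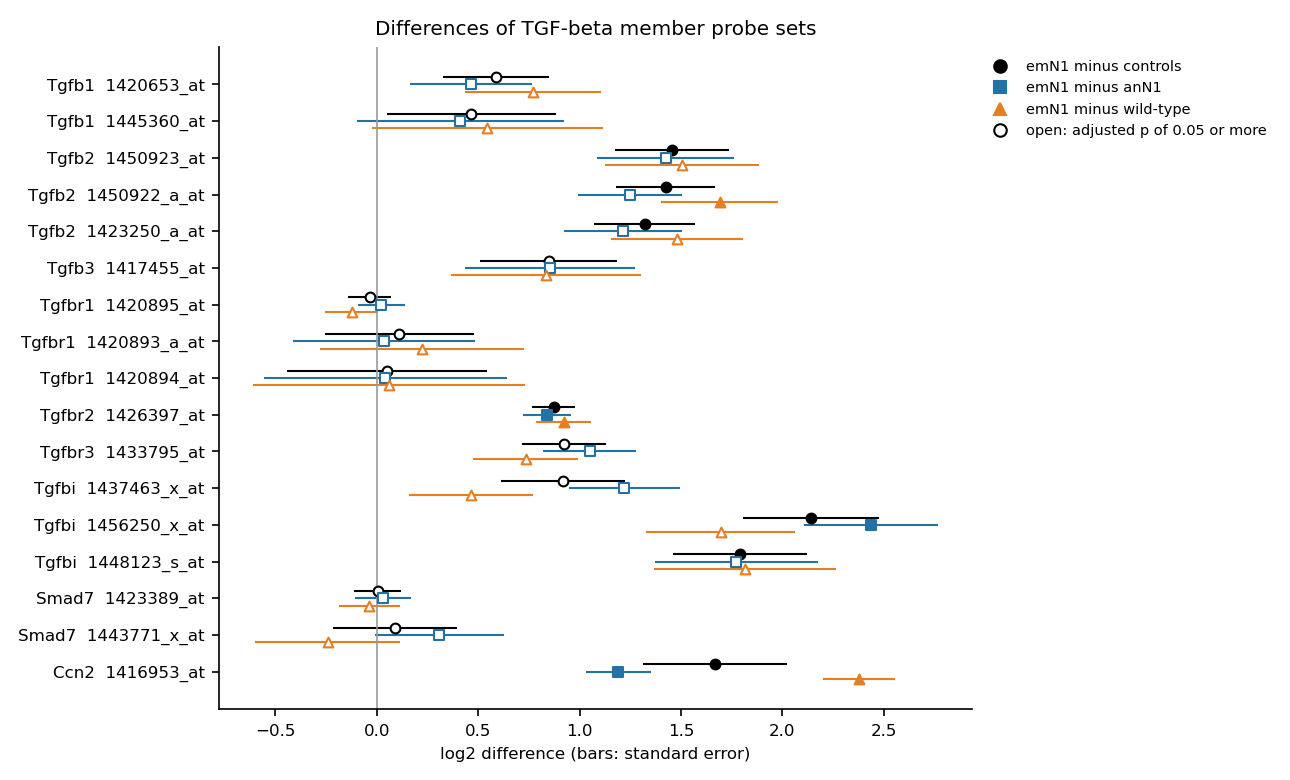
Log2 difference of emN1 from controls (circles), from anN1 (squares) and from wild-type (triangles) for each tested member probe set, with bars of 1 SE and filled points for a limma adjusted p under 0.05. The circle of Tgfbr2 has the shortest bar of those filled (0.11), while Tgfbr1 and Smad7 sit at -0.04 and 0.00 on their bright probe sets.

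The kinds of control were also set against emN1 one at a time. Against anN1, the control that shares both array sets, 3 member probe sets passed in limma, where 1.35% of all probe sets were higher: Tgfbr2 (log2 0.84, adjusted p = 0.0206), 1456250_x_at of Tgfbi (2.44, 0.0168) and Ccn2 (1.19, 0.0161). Against wild-type, 3 passed, where 1.53% of all were higher: Tgfbr2 (log2 0.92, adjusted p = 0.0195), 1450922_a_at of Tgfb2 (1.69, 0.0343) and Ccn2 (2.38, 0.00163). Both comparisons use the same emN1 arrays. In limma the count against anN1 was 0 without any single emN1 or anN1 array (6 to 9 at an unadjusted p under 0.05, beside 7.22% to 11.6% of all) and 9 without either wild-type array. Against wild-type it was 0 without emN1 replicate 2, 1 without any other emN1 or anN1 array, 3 without wild-type replicate 1 and 7 without wild-type replicate 2. With the replicate block it was 0 against anN1 and 1 against wild-type.

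Within the array sets, 6 of 17 member probe sets, from 3 genes, had at least 2-fold more signal in emN1 than in anN1 in both sets, against 1.89% of all probe sets. The ratio of emN1 over anN1 was 6.66 in the first set and 4.98 in the second for 1456250_x_at of Tgfbi. For 1450923_at of Tgfb2 it was 3.02 and 2.45. For Ccn2 it was 2.04 and 2.57. The 3 genes were picked by this limit, which fixes their direction in each set, and each ratio rests on 1 emN1 and 1 anN1 array. Tgfbr2 had ratios of 1.83 and 1.75, Tgfbr3 1.84 and 2.39, and Tgfb3 2.18 and 1.65. Tgfb1 differed between sets, with 1.82 in the first and 1.07 in the second, and Smad7 was at 1.03 and 1.01. In all, 13 of 17 probe sets were above anN1 in both sets, against 27.5% of all probe sets. These include Smad7 at the ratios above and the bright probe set of Tgfbr1 at 1.001 and 1.031, which are nearly level.

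**Figure D3:**
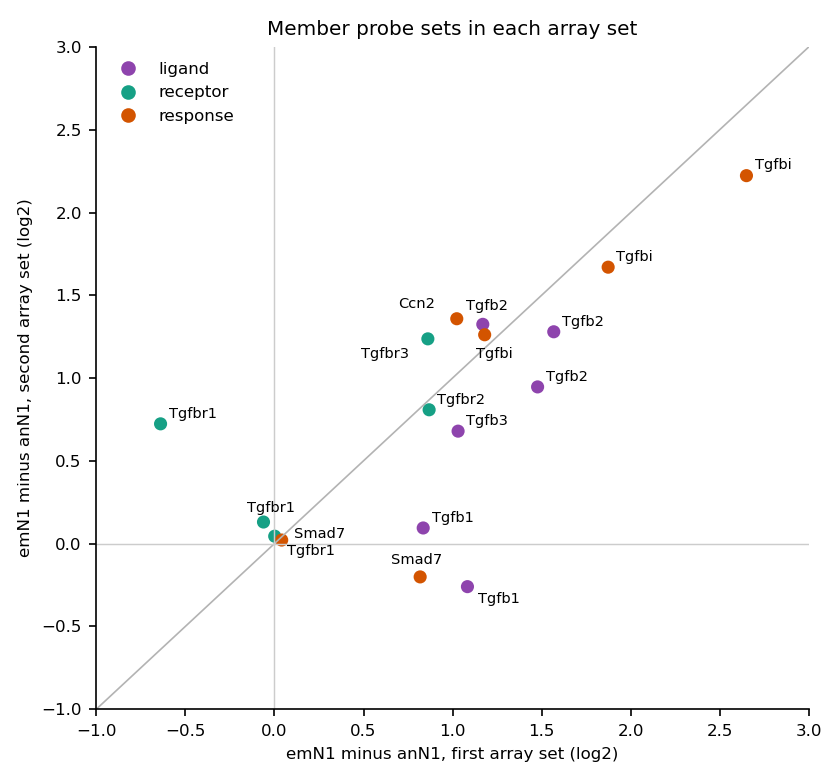
Log2 ratio of emN1 over anN1 in the first array set (horizontal axis) and in the second (vertical axis) for each tested member probe set, coloured by role, with the line of equal ratios. The 2 points farthest above 0 on both axes are probe sets of Tgfbi, and Tgfbr1 and Smad7 lie by the origin on their bright probe sets.

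Between anN1 and wild-type bulbs, 0 of 17 member probe sets passed in limma, and 0.074% of all probe sets passed. An unadjusted p under 0.05 was found for 2 of 17, and for 3.64% of all. Those 2 were Ccn2, at log2 1.19 ± 0.18 (SE; adjusted p = 0.177), and 1437463_x_at of Tgfbi, at -0.75 ± 0.31 (adjusted p = 0.999). For Ccn2 the adjusted p was 0.0146 without wild-type replicate 1. Its signals, 2385 and 3402 units in anN1 and 1640 and 1508 units in wild-type bulbs, make it the member on which the kinds of control lay farthest apart by p.

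Of 17 genes that store and release the ligand, 12 were measured; 2 were higher in emN1 and none lower in limma, beside 3.58% and 1.83% of all genes, with a median log2 difference of 0.49. Thbs1, which encodes thrombospondin 1, a known activator of latent TGF-beta, gave 1102 and 3768 units in emN1, 368.2 and 628.3 in anN1, and 1006 and 656.3 in wild-type bulbs (log2 2.00 ± 0.28, SE; adjusted p = 0.00778). Its emN1 values differed widely from each other, its second tested probe set did not pass (0.83, adjusted p = 0.251), and the call was lost with the replicate block (0.203) or without emN1 replicate 1 (0.0546). Bgn, which encodes biglycan, a matrix proteoglycan that binds TGF-beta, gave 10371 and 19722 units in emN1, 3105 and 7069 in anN1, and 5861 and 7255 in wild-type bulbs (log2 1.63 ± 0.13, SE; adjusted p = 0.00154 in limma). Without emN1 replicate 2 the adjusted p of Bgn was 0.0829 and that of Thbs1 0.202 in limma, and with the replicate block that of Bgn was 0.0524.

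Among genes that carry or tune the signal inside the cell, 1 passed. Of 20, 19 were measured, none was higher in limma, and Nedd4l was lower, with a median of 0.07. Over all genes 3.58% were higher and 1.83% lower. Nedd4l encodes a ubiquitin ligase known to limit TGF-beta signalling by acting on phosphorylated Smad2 and Smad3. It gave 631.7 and 660.0 units in emN1, 1675 and 1330 units in anN1, and 1666 and 1479 units in wild-type bulbs (log2 -1.24 ± 0.19, SE; adjusted p = 0.0105 in limma). The second tested probe set of Nedd4l did not pass (-0.53, adjusted p = 0.530), and the call was lost without either emN1 array or anN1 replicate 1 (0.104 to 0.126). The Smads that carry the signal, named after their values were seen, had log2 differences of -0.26 (Smad2), -0.04 (Smad3) and -0.06 (Smad4), none past the threshold. Skil and Pmepa1, feedback genes that TGF-beta induces in many cells, were at 0.27 and 0.46 (adjusted p = 0.306 and 0.242 in limma) and were also named after their values were seen.

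Of the 22 transcripts known to be induced by TGF-beta in cultured cells, 21 were measured. In limma 11 were higher in emN1, 10 did not pass and none was lower, beside 3.58% higher over all genes. This list was chosen with earlier results of these data known, so the contrast is a description. The log2 difference was above 0 for 20 of 21 and for 47.5% of all genes, with medians of 0.89 and -0.02. Timp1, an inhibitor of matrix metalloproteinases, gave 1547 and 1010 units in emN1, 310.4 and 241.6 in anN1, and 262.6 and 297.7 in wild-type bulbs (log2 2.01 ± 0.26, SE; adjusted p = 0.00564 in limma). Postn, the matrix protein periostin, gave 19366 and 12344 units in emN1, 3762 and 4138 in anN1, and 3918 and 7150 in wild-type bulbs (log2 1.75 ± 0.29, SE; adjusted p = 0.0155 in limma). Neither overlapped its controls. Tagln, a smooth muscle actin-binding protein, gave 5986 and 7882 units in emN1, 2013 and 2847 in anN1, and 2067 and 2041 in wild-type bulbs (log2 1.69 ± 0.17, SE; adjusted p = 0.00296 in limma). Lox, the enzyme that cross-links collagen, gave 1330 and 1492 units in emN1, 500.1 and 701.5 in anN1, and 451.8 and 499.1 in wild-type bulbs (log2 1.41 ± 0.24, SE; adjusted p = 0.0178 in limma). Both were also above every control. The second tested probe set of Lox did not pass (2.00, adjusted p = 0.124 in limma). Without emN1 replicate 2 none of these 4 passed (adjusted p = 0.115, 0.114, 0.115 and 0.224 in limma), and without emN1 replicate 1 or anN1 replicate 1 Tagln did, while the others missed it (0.0664 to 0.177). The other 7 that passed, named after their values were seen, had log2 differences of 0.81 to 1.40. They were Col1a2 (a collagen), Fn1 (fibronectin), Timp3 (a metalloproteinase inhibitor), Acta2 (smooth muscle actin), Tgfb1i1 (a focal adhesion protein), Cdkn2b (a cell cycle inhibitor) and Sphk1 (a lipid kinase). Against anN1 alone 6 of 21 were higher, beside 2.11% of all genes, and against wild-type alone 5, beside 2.36%. The count was 0 of 21 in limma without emN1 replicate 2 (13 at an unadjusted p under 0.05), 2 without emN1 replicate 1 or anN1 replicate 1, 10 or 11 without any other array, and 3 with the replicate block.

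Markers of fibroblasts, contractile cells and macrophages were also higher in part. Over all genes, 3.58% were higher and 1.83% lower in limma. The summed signal of 8 fibroblast markers was 115514 and 100215 units in emN1 and 62546 to 83533 units in controls, with 4 of 8 higher in limma and none lower. Dcn, the proteoglycan decorin, made up 44.1% of that sum and was at a log2 difference of 0.00. The 4 of 8 became 0 without either emN1 array in limma (6 and 5 at an unadjusted p under 0.05), and 1 without anN1 replicate 1 or with the replicate block. For contractile cells it was 39779 and 40579 units in emN1 and 15447 to 22461 units in controls, with 3 of the 4 measured of 7 higher, while the defining markers Myh11, Cnn1 and Des were too dim to be tested. Acta2 made up 76.9% of that sum and was at a log2 difference of 0.95. The 8 macrophage and immune markers summed to 6568 and 7713 units in emN1 and 1716 to 2168 units in controls, with 3 of 8 higher, and with 2 of 8 without any single one of emN1 replicate 1 and the anN1 arrays or with the replicate block. The part of these cells in the members' values was not tested. Of the 21 induced transcripts, 4 are also fibroblast or contractile markers. Without those 8 of 17 were higher, with a median of 0.85, beside 3.58% of all genes. The marker lists are short, so leaving out these 4 does not remove the part of such cells, which was not tested.

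Melanocyte markers were lower in 7 of 7, at 105029 and 88234 units in emN1 and 203335 to 295988 units in controls. For this and the next lists, the shares over all genes were 1.83% lower and 3.58% higher in limma. Dermal papilla markers summed to 13067 and 11102 units in emN1 and 11435 to 14528 units in controls, with 1 higher and 3 lower of the 6 measured of 8. The 2 endothelial markers measured of 6 summed to 448 and 518 units in emN1 and 591 to 881 units in controls, none passed, and Pecam1, Cdh5, Tie1 and Emcn were too dim to be tested. Of the 7 hair matrix and shaft markers measured, 1 was higher and none lower, and that call was lost with the replicate block. Krt35 made up 49.2% of their sum and was at a log2 difference of -0.53 (adjusted p = 0.131 in limma). Basal and outer sheath markers summed to 142987 and 159867 units in emN1 and 95875 to 110848 units in controls, with 4 higher and 1 lower of 7. Without emN1 replicate 1 or anN1 replicate 1, 5 of 7 melanocyte markers were lower, 1 dermal papilla marker was lower and none higher, and 2 basal markers were higher and none lower. The 1 higher dermal papilla call was lost whichever array was left out, and the 1 lower basal call whichever but wild-type replicate 2. Without emN1 replicate 2, 0 genes passed in limma in each of the 8 marker lists, with all 7 melanocyte markers and 5 fibroblast markers at an unadjusted p under 0.05.

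**Figure D4:**
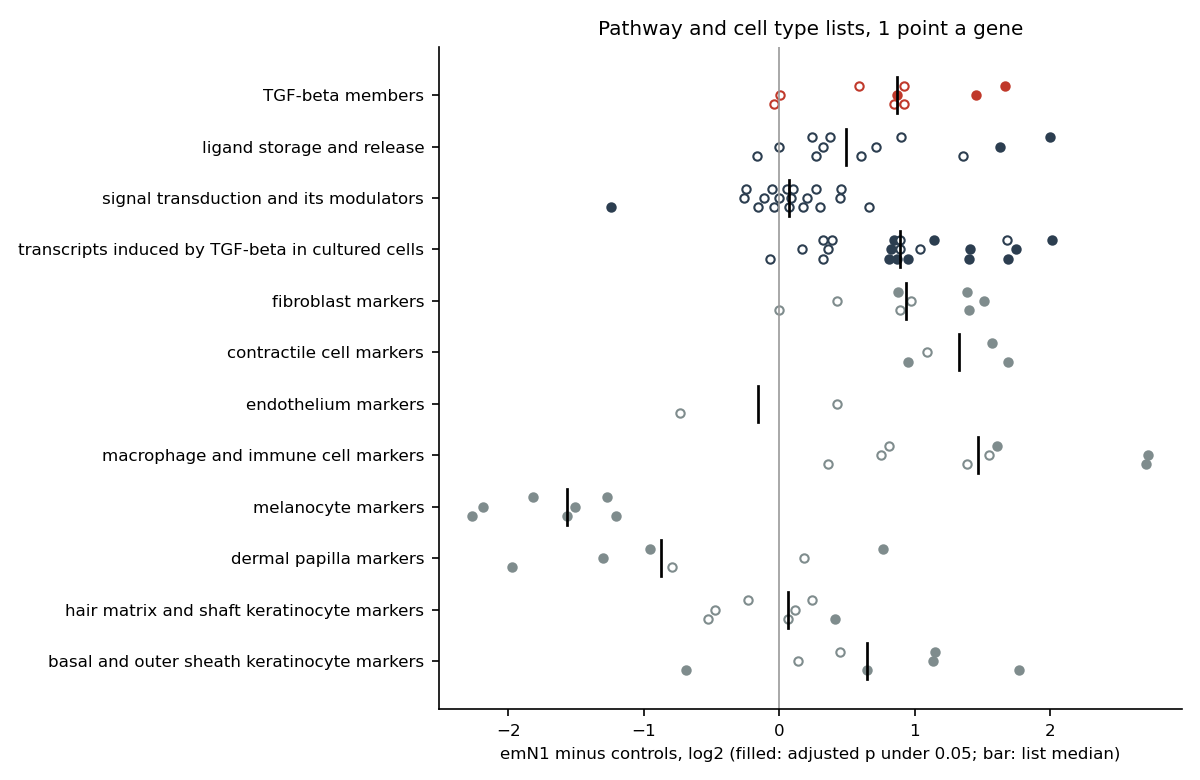
Log2 difference of emN1 from controls for each measured gene of the TGF-beta members, the 3 further pathway lists and the marker lists, 1 point per gene by its brightest probe set, filled where the limma adjusted p was under 0.05, with the median of each list as a bar. The medians are 0.87 for the members, 0.49 for ligand storage, 0.07 for signal transduction and 0.89 for induced transcripts, beside 0.93 for fibroblast and -1.57 for melanocyte markers.

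The genes whose 6-array profile was most like each ligand's were found by the root mean square difference of centred log2 signals, over 12610 genes and 6 arrays. For Tgfb2 they were Itgbl1 (0.15) and Smim3 (0.16), where the median gene was at 0.80. Itgbl1 gave 3104 and 3699 units in emN1 bulbs, 757.8 and 1601 in anN1, and 1109 and 1940 in wild-type bulbs, following Tgfb2 down to the low anN1 replicate 1. For Tgfb3 they were Ets2 (0.05) and Lmo4 (0.07), with a median of 0.51, and for Tgfb1 Pou6f1 and Map7d1 (both 0.11), with a median of 0.50. The 6 arrays share their groups and sets, so likeness over them is a description.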

How the data were processed

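Hair bulb RNA of 6 samples was measured on 1-colour oligonucleotide arrays. The authors deposited 1 linear intensity for each probe set, made with MAS5 per the submitters' processing notes, whose version and settings the sources used here do not give. Each array's intensity values, as deposited, average 1500 once the lowest 2% and highest 2% are trimmed, and no further scaling was applied. Gene symbols came from the platform annotation (1 symbol for 34958 probe sets, several for 932, none for 9211), and only probe sets with 1 symbol were used for a gene.

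The 64 control probe sets were left out. Signals were analysed as log2(signal + 17.8), where 17.8 is the 10th percentile of the table, and the brightest 60% by mean log2 signal were tested (27022 probe sets, 12611 genes). The background limit of 112 units is the 95th percentile of 120 values of 20 undetected bacterial control probe sets. The number of arrays limits the precision.

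Groups were compared with limma 3.58.1 in R 4.3.3 (lmFit, then eBayes with a trend on intensity). Tests were two-sided, with array set as a term and Benjamini-Hochberg adjustment over all tested probe sets at 0.05. The emN1 and control arrays were compared in 1 fit (3 residual degrees of freedom) and the 3 groups in another (2 residual degrees of freedom). Each gene was represented by its tested probe set of highest mean log2 signal, called its brightest. The fit was also run on simulated data drawn without an effect of the array set, which does not check the set term. Figures used matplotlib 3.10.9.

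In the design text the replicate numbers of emN1 and anN1 are their array sets, which pairs them. The deviations of same-numbered arrays correlated with r = 0.38 for emN1 and anN1 over the tested probe sets, and with -0.19 (emN1) and -0.02 (anN1) for pairs with wild-type, whose numbers mark no set.

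Named were Notch1, the 9 members, up to 4 passing genes by size of change from each other pathway list, and the 2 genes most like each ligand; any other gene was named after its values were seen. The members and lists were chosen with earlier results of these data known. The alternatives were another pseudocount, signals raised to the background limit, no filter, no intensity trend, no set term, quantile normalization, the replicate block, each array left out, and the mean of a gene's probe sets.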

Additional observations from a re-analysis of the deposited data

How the results depend on the processing

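For emN1 against controls, 1020 probe sets passed, 7 of them members. Counts stayed within 1.5 times of these with a pseudocount of 1, signals raised to the background limit, no filter or quantile normalization. Without the intensity trend 0 passed in limma in each comparison, where an unadjusted p under 0.05 was found for 4044 against controls (11 members), 3109 against anN1, 3003 against wild-type and 1118 for anN1 against wild-type. Without the set term 286 passed, 3 of them members, against controls. Without it 42 passed against anN1, 0 of them members, where 545 passed with it and 3 of them members, and 215 against wild-type, 1 of them a member, where 584 passed with it and 3 of them members. With the replicate block in place of the array set, 288 passed against controls (3 members), 73 against anN1 (0 members) and 262 against wild-type (1 member). This block puts a wild-type array in the first set, which the design text does not. For anN1 against wild-type 20 passed, and 16 with the replicate block.

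Leaving out 1 array gave 1 to 1100 against controls (0 to 8 members), 0 to 1261 against anN1 (0 to 9 members), 0 to 1332 against wild-type (0 to 7 members), and 0 to 162 for anN1 against wild-type (0 to 1 members). Without either array of the first set, the set term takes up the other. No member called higher changed direction in any of the 13 alternatives. Taking the mean of a gene's probe sets in place of the brightest moved the median of the 3 response members from 0.92 to 1.62 against controls and from 0.47 to 1.33 against wild-type, and left that of the 9 members at 0.87 and those of the other pathway lists between 0.07 and 0.81. With 6 arrays and 3 or 2 residual degrees of freedom, a probe set that did not pass is not shown to be unchanged, and dim probe sets near 112 units carry the widest errors.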
